A study of Mus musculus with 9 samples.

Results

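Enzymes of the pentose phosphate pathway and of NADPH production were followed in cultured mouse podocytes, the epithelial cells that wrap the filtering capillaries of the kidney. The 10 genes were taken by symbol from the deposited gene table, and all were found among its 55385 genes: G6pdx, Pgls, Pgd, Rpia, Rpe, Tkt, Taldo1, Me1, Idh1 and Idh2. All 10 also passed the filter on low counts, which left 17680 genes for testing. RNA was sequenced from 9 libraries of the cell line MCP5, labelled wild type, in 3 groups of 3. Control cells were labelled blank, the high glucose group received 50 mmol/L, and the third group received advanced glycation end products (AGEs, sugar-modified proteins) at 400 µg/mL. The labels used here do not state treatment time, control glucose, an osmotic control or a carrier protein control. The titles number the libraries but name no separate cultures, so each p-value rests on a library-to-library spread that could be purely technical.

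The pentose phosphate pathway leaves glycolysis at glucose 6-phosphate. Its oxidative branch (G6pdx, Pgls, Pgd) makes NADPH, the reducing agent for glutathione recycling and for fatty acid and sterol synthesis, and yields ribulose 5-phosphate. Its non-oxidative branch (Rpia, Rpe, Tkt, Taldo1) interconverts pentoses with glycolytic sugars and supplies ribose for nucleotides. Me1 in the cytosol, Idh1 in the cytosol and peroxisomes, and Idh2 in mitochondria make NADPH from malate or isocitrate. In podocytes and other kidney cells the pathway is mostly discussed as a source of antioxidant capacity and as an outlet for sugar phosphates.

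Total counts ran from 46284878 to 77242281 per library. Principal component 1 set the high glucose libraries (85.8 to 90.2) apart from all others (−48.9 to −41.7 in 5 of them and −40.4 in AGEs library 3), and on component 2 AGEs library 3 stood alone at 82.8. The label podocyte was checked against 14 markers, of which 8 passed the filter on low counts. In all libraries 3 of the 14 had 0 counts, Foxc2 and Lmx1b among them, and Wt1 had 11 counts in 1 library. On average 7 markers were below 1 FPKM (fragment counts scaled to gene length and library depth). Among the expressed markers were Actn4 and Cd2ap, which most epithelial cells also express. They were at 73.8 ± 9.69 and 16.2 ± 8.97 FPKM in control (mean ± SD, n = 3, as for all such values), with Cd2ap at 5.98 FPKM in control library 3. The summed FPKM of 8 parietal epithelial markers was 428 to 450 in control, 829 to 904 in high glucose and 401 to 469 in AGEs, with none of the 8 at 0. Of 8 tubular markers 3 had 0 counts throughout and 6 averaged below 1 FPKM, so their sum rests on few genes. It was 23.6 to 24.2, 81.7 to 86.3 and 23.1 to 27.9 FPKM in the same order of groups. The sums of the leukocyte (28.8 to 30.9 against 50.3 to 58.1), mesangial and fibroblast (8.07 to 8.74 against 13.6 to 14.96) and endothelial markers (1.01 to 1.14 against 2.56 to 3.28) were also higher in high glucose than in control. Of the 8 markers in each of these lists, 4, 6 and 7 averaged below 1 FPKM, in that order. The podocyte sum was 106 to 125 FPKM in control, 151 to 161 in high glucose and 136 to 147 in AGEs. This sum rose with both treatments, and Actn4 was its largest part in control. By the edgeR test described below, 4 of the 8 tested podocyte markers rose with high glucose and 0 fell. With AGEs 0 of the 8 passed that test, and their log2 fold changes ran from −1.63 to 1.45. All AGEs libraries lay above control for 2 of these markers and below it for 1. The part of these sums in the high glucose and AGEs changes below was not tested. In bulk RNA, a change in the make-up of the cells and a change of RNA per cell cannot be told apart.

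In control cells the non-oxidative enzymes Tkt and Taldo1 were the most abundant of the 10 by FPKM, which corrects for gene length. Tkt (transketolase) stood at 91.2 ± 5.57 FPKM and Taldo1 (transaldolase) at 73.8 ± 4.75 FPKM. G6pdx followed at 56.7 ± 1.9, Idh2 at 51.1 ± 2.5, Me1 at 34.6 ± 1.03, Pgd at 31.4 ± 1.48 and Idh1 at 30.6 ± 1.27 FPKM. The lowest were Rpe at 19.4 ± 1.37, Rpia at 12.2 ± 0.41 and Pgls at 10.5 ± 0.90 FPKM. Neighbours in this order did not overlap between libraries, except Pgd (30.1 to 33.0) and Idh1 (29.4 to 31.9). In high glucose Idh1 moved up to the fourth place with 71.9 ± 4.52 FPKM and Rpia dropped to the last with 3.72 ± 0.43 FPKM.

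**Figure D1:**
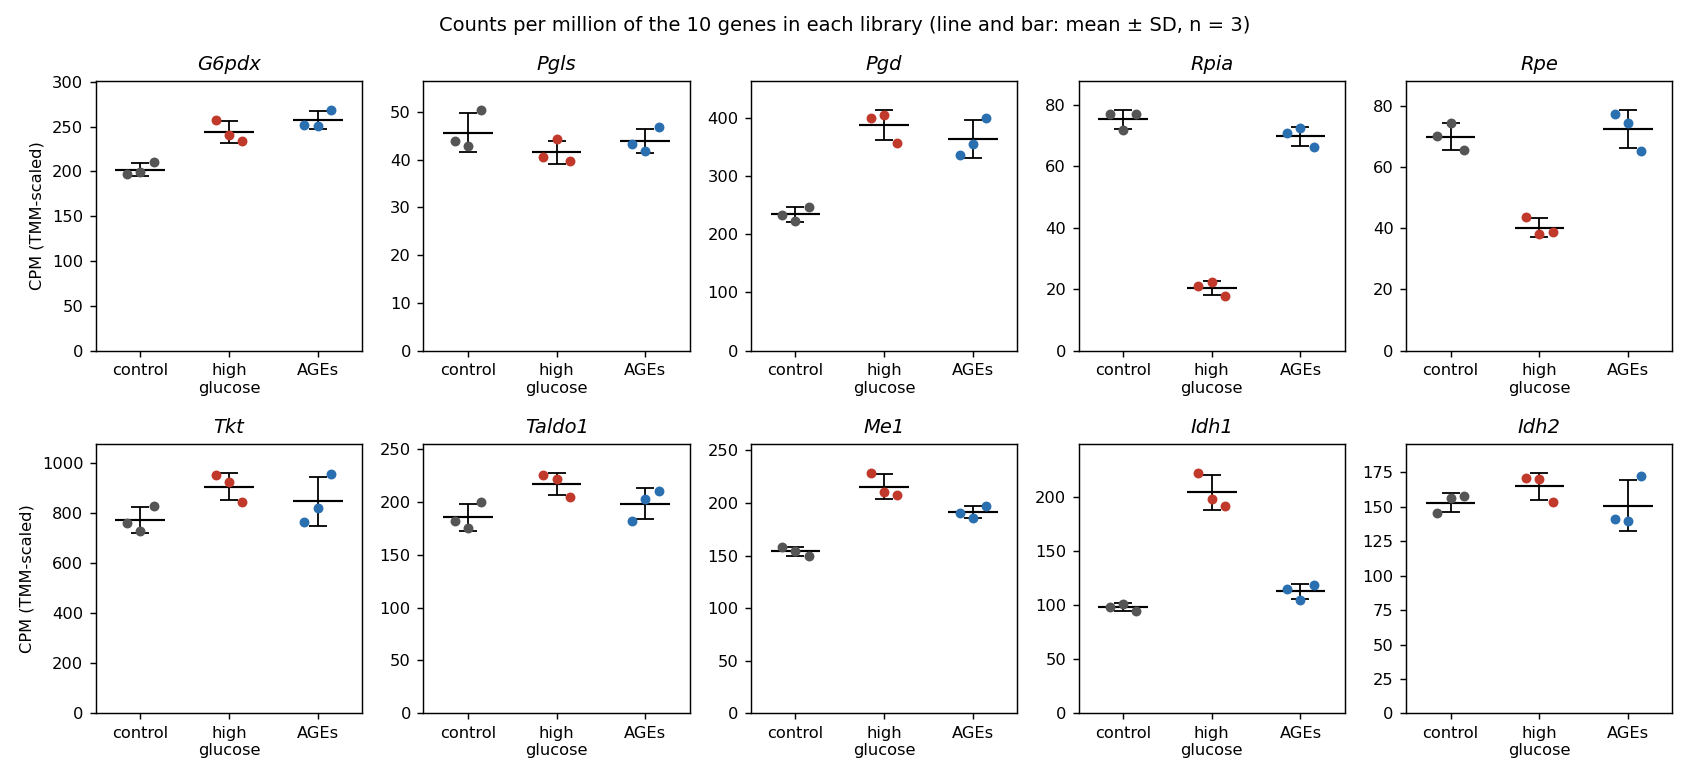
CPM (depth-scaled read counts, each axis from 0) of the 10 genes in the 3 libraries of control (grey), high glucose (red) and AGEs (blue), with the mean ± SD. Rpia and Rpe are low in the red points alone, Idh1 is highest in them, and G6pdx, Pgd, Me1 and Idh1 lie above control in both treated groups.

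High glucose split the 10 genes. Pgd, Idh1, Me1 and G6pdx rose and Rpia and Rpe fell, while Pgls, Tkt, Taldo1 and Idh2 did not pass the test. Calls are those of edgeR's quasi-likelihood test with a Benjamini-Hochberg adjusted p, over all 17680 genes, under 0.05. In this comparison 39.3% of all genes were called, 19.6% higher and 19.7% lower, beside 4 and 2 of the 10. Libraries of the 2 groups did not overlap for 6 of the 10 upwards (28.3% of all genes) and 2 downwards (25.8% of all genes). The median log2 fold change was 0.23 for the 10 genes and 0.03 for all genes. Values per library below are CPM (read counts scaled to library depth with edgeR's TMM factors), the scale on which the test was run.

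Of the oxidative branch, Pgd changed most. Pgd encodes 6-phosphogluconate dehydrogenase, the second NADPH-producing step. The control libraries had 233, 222 and 247 CPM of it and the high glucose libraries 399, 405 and 357 CPM, with no overlap. The rise was 1.66-fold (log2 fold change 0.73, SE 0.09, adjusted p = 0.000154 by edgeR). G6pdx encodes glucose-6-phosphate dehydrogenase, the entry step that commits glucose 6-phosphate to the pathway. Control libraries held 197, 199 and 210 CPM and high glucose libraries 258, 241 and 234 CPM. These groups did not overlap either, and the rise was 1.21-fold (log2 fold change 0.27, SE 0.07, adjusted p = 0.00832). Pgls, the lactonase between these dehydrogenases, had 43.9, 42.8 and 50.4 CPM without treatment and 40.6, 44.3 and 39.7 CPM under high glucose. Its groups overlapped (log2 fold change −0.14, SE 0.09, adjusted p = 0.286), and the sign turned to 0.04 with limma on log2(FPKM + 1).

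The isomerase and the epimerase at the head of the non-oxidative branch both fell. Rpia, which converts ribulose 5-phosphate to the ribose 5-phosphate used for nucleotides, had 77.2, 71.7 and 77.0 CPM without treatment and 21.1, 22.3 and 17.7 CPM under high glucose. The groups lay far apart, with the highest treated library well under the lowest control. Rpia fell 3.69-fold (adjusted p = 2.13e-06, log2 fold change −1.88, SE 0.10), rank 83 of all genes by p. Rpe, which makes xylulose 5-phosphate from the same substrate, had 70.0, 74.3 and 65.4 CPM without treatment and 43.6, 38.2 and 38.7 CPM under high glucose. Rpe fell 1.74-fold (adjusted p = 0.00017, log2 fold change −0.80, SE 0.10), again without overlap. Rpe shares 558 exonic bases with Kansl1l on the opposite strand, and no source used here gives the strand setting of the counting. Kansl1l had 15403 counts over all libraries against 36783 for Rpe, and its own log2 fold change was 0.24 (adjusted p = 0.132).

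Tkt and Taldo1, which shuffle carbon units between sugar phosphates, did not follow them. Tkt had 762, 731 and 832 CPM without treatment and 953, 925 and 846 CPM under high glucose (adjusted p = 0.0831, log2 fold change 0.23, SE 0.09). Taldo1 had 181, 175 and 199.8 CPM without treatment and 225, 221 and 205 CPM under high glucose (adjusted p = 0.0515, log2 fold change 0.23, SE 0.08). For both genes the lowest high glucose library lay above the highest control library by a small margin. Both calls depended on the setting, with adjusted p from 0.0048 to 0.224 for Tkt and from 0.0018 to 0.151 for Taldo1 over 17 alternatives, and a positive sign in each.

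Of the NADPH enzymes outside the pathway, the cytosolic ones rose. Idh1, the NADP-dependent isocitrate dehydrogenase of cytosol and peroxisomes, had 98.6, 101 and 94.6 CPM without treatment and 222, 198 and 192 CPM under high glucose. The groups were well separated. The rise of 2.08-fold (log2 fold change 1.06, SE 0.08, adjusted p = 1.45e-05) was larger than that of the other 9 genes. Me1, the cytosolic malic enzyme, had 158, 155 and 149 CPM without treatment and 229, 210.2 and 207 CPM under high glucose. Every treated library was above every control, and Me1 rose 1.40-fold (log2 fold change 0.48, SE 0.06, adjusted p = 0.000319). Idh2, the mitochondrial counterpart of Idh1, had 145, 156 and 158 CPM without treatment and 171, 170.0 and 153 CPM under high glucose, with overlap (adjusted p = 0.416, log2 fold change 0.11, SE 0.09).

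Overlapping genes and near-identical copies leave some counts uncertain. G6pdx shares 418 exonic bases with Ikbkg on the opposite strand (13108 counts against 143109), and Pgls shares 776 with Fam129c on its own strand, which had 1370 counts against 26438. For Me1, the processed pseudogene Gm7049 on chromosome 13 matches 1638 of the 3292 bases of its longest coding transcript at 98.5% identity, and it had 17.8% as many counts as Me1. Control libraries had 28.05 ± 2.16 CPM of Gm7049 and high glucose libraries 37.8 ± 0.59 CPM (adjusted p = 0.00488, log2 fold change 0.43). A smaller piece, Gm7329, had 208 counts against 114509 for Me1. For G6pdx the intronless relative G6pd2 on chromosome 5, 93.2% identical over 2332 bases, had 30 counts over all libraries against 143109. The Taldo1 pseudogene Gm17823 had 56 counts against 121850.

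Scaling bears on the smaller rises in high glucose. TMM factors were 1.07 to 1.10 in high glucose and 0.94 to 0.97 in the other groups. With limma on log2(FPKM + 0.1) the median of all genes moved to 0.17, and 67.9% of called genes were higher (49.9% by edgeR). On that scale 5121 of all 17680 genes were called higher and 2426 lower, beside 7 and 2 of the 10. The added calls were Tkt (log2 difference 0.40), Taldo1 (0.40) and Idh2 (0.28). Rpia and Rpe stayed lower there, with smaller log2 differences of −1.69 and −0.62.

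AGEs moved a smaller set. Pgd was called higher, and G6pdx, Me1 and Idh1 were higher in every AGEs library without passing the adjusted test. The 7 genes other than Pgd, G6pdx and Me1 lay within a log2 fold change of −0.11 to 0.20. In this comparison 0.0848% of all genes were called (15 of 17680), 0.0509% higher (9 genes) and 0.0339% lower (6 genes), with 2190 genes at an unadjusted p under 0.05. By p, Pgd stood at rank 14, G6pdx at rank 51 and Me1 at rank 85 of 17680. Of the 10 genes 4 had AGEs libraries all above control, where 9.47% of all genes did, and 0 had them all below, where 9.73% did.

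Pgd had 336, 355 and 400 CPM in the AGEs libraries, against at most 247 CPM in control. The rise was 1.55-fold (log2 fold change 0.64, SE 0.09, adjusted p = 0.0395 by edgeR). It held its size over the 17 alternatives (0.56 to 0.69), but the call was lost in 9 of them, among them the omission of AGEs library 3 (0.56, adjusted p = 0.0672), the fit on the 2 groups alone (0.64, adjusted p = 0.109) and the replicate block (0.63, adjusted p = 0.199). Leaving out AGEs library 2, any 1 control library or high glucose library 1 or 2 also ended it, with adjusted p from 0.0737 to 0.155. DESeq2 called it at an adjusted p of 3.61e-07.

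G6pdx had 252, 251 and 269 CPM in AGEs, all above its control range (log2 fold change 0.35, SE 0.07, adjusted p = 0.14). Me1 had 190, 186 and 197 CPM, also all above control (log2 fold change 0.31, SE 0.06, adjusted p = 0.178). DESeq2, which called 325 genes in this comparison, called both (adjusted p = 0.00143 for G6pdx and 0.00237 for Me1). The pseudogene Gm7049 was at 34.3 ± 2.33 CPM in AGEs (log2 fold change 0.29, adjusted p = 0.315). Idh1 had 115, 105 and 118 CPM and was the fourth gene without overlap (log2 fold change 0.20, SE 0.08, adjusted p = 0.37).

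The non-oxidative genes showed no called difference between AGEs and control. Rpia had 70.7, 72.4 and 66.2 CPM in AGEs (log2 fold change −0.11, SE 0.10, adjusted p = 0.674) and Rpe had 77.4, 74.3 and 65.3 CPM (0.05, SE 0.09, adjusted p = 0.88). Tkt had 765, 822 and 958 CPM and Taldo1 had 182, 202 and 210 CPM, with log2 fold changes of 0.13 and 0.09. Idh2 had 141, 139 and 172 CPM and Pgls had 43.3, 41.8 and 46.8 CPM, with log2 fold changes of −0.02 and −0.06. AGEs library 3, the library apart on component 2, was the highest AGEs library for Tkt, Taldo1, Idh2, Pgls, Pgd, G6pdx, Me1 and Idh1 and the lowest for Rpia and Rpe.

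**Figure D2:**
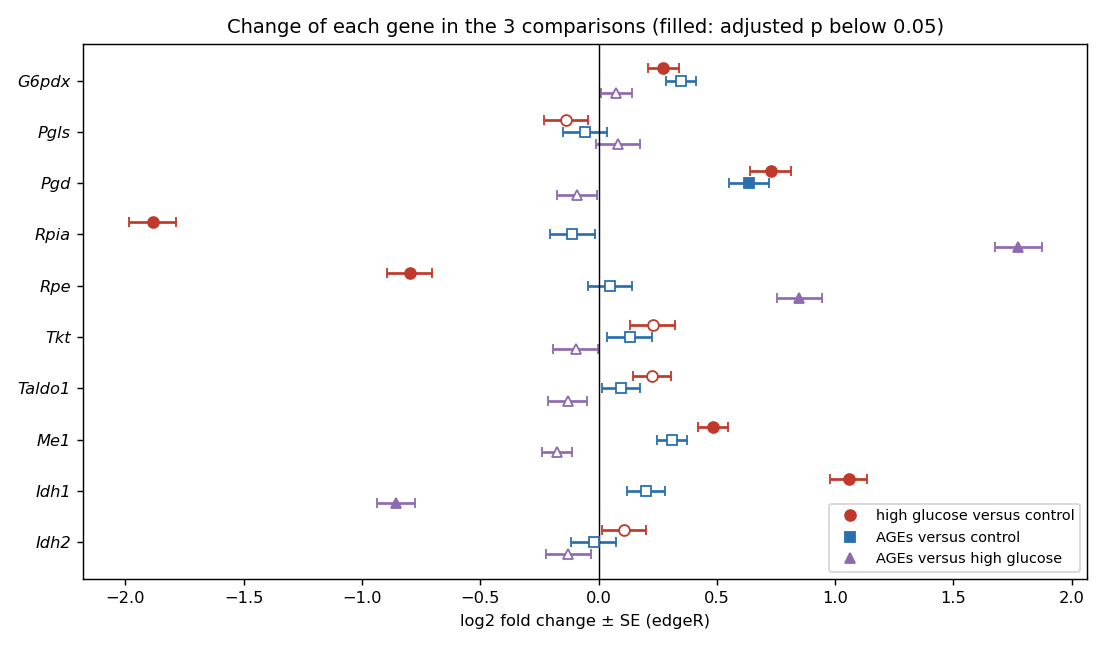
Log2 fold change ± SE from edgeR (horizontal axis) for each of the 10 genes in the 3 comparisons, with filled symbols for an adjusted p under 0.05. Rpia and Rpe are called in high glucose at −1.88 and −0.80 and lie near 0 in AGEs. Against control, G6pdx, Pgd, Me1, Idh1, Tkt and Taldo1 lie to the right of 0 for both treatments.

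The difference between the treatments was tested directly by AGEs against high glucose, where 39.9% of all genes were called, 19.7% higher and 20.2% lower. Of the 10 genes 2 were called higher and 1 lower, and the libraries did not overlap for 2 upwards (25.2% of all genes) and 2 downwards (27.3%). Rpia was 3.42-fold higher in AGEs than in high glucose (adjusted p = 2.52e-06) and Rpe 1.80-fold higher (adjusted p = 0.000114). Idh1 was 1.81-fold lower in AGEs (log2 fold change −0.86, SE 0.08, adjusted p = 3.94e-05). Pgd, G6pdx and Me1, like Idh1 above control in both treatments, had no called difference. Their values were −0.09 for Pgd (SE 0.09, adjusted p = 0.438), 0.08 for G6pdx (SE 0.07, adjusted p = 0.404) and −0.17 for Me1 (SE 0.06, adjusted p = 0.0558). On the FPKM scales Pgd was called lower in AGEs (−0.29 with adjusted p = 0.0132 by limma on log2(FPKM + 0.1)) and the sign of the G6pdx value turned to −0.12. Me1 was called lower in AGEs under 5 of the 17 alternatives. The 2 treatment effects share their control libraries, so their likeness is given only as these values.

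Ratios of FPKM within a library do not depend on the scaling between libraries, and they show which genes changed unequally. G6pdx exceeded Pgd by a ratio of 1.77, 1.87 and 1.78 without treatment, of 1.35, 1.24 and 1.37 under high glucose, and of 1.57, 1.48 and 1.40 with AGEs. Both treated groups lay below control without overlap. The ratio of Idh1 to Idh2 was 0.63, 0.61 and 0.56 without treatment, then 1.21, 1.09 and 1.17 under high glucose, and 0.76, 0.70 and 0.64 with AGEs. Cytosolic Idh1 thus passed mitochondrial Idh2 in the high glucose libraries alone. With 3 libraries against 3 an exact permutation test cannot go below p = 0.1, so these ratios were not tested.

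Tkt to Taldo1 was close in control and high glucose and spread wider with AGEs: 1.24, 1.23 and 1.23 without treatment, then 1.25, 1.24 and 1.22 under high glucose, and 1.24, 1.199 and 1.35 with AGEs. Tkt to Rpia, in contrast, went from 7.20, 7.43 and 7.87 without treatment to 32.9, 30.2 and 34.8 under high glucose, and was 7.89, 8.28 and 10.6 with AGEs. The summed FPKM of the 4 non-oxidative genes over that of the 3 oxidative genes was 1.99 ± 0.02 without treatment, 1.60 ± 0.01 under high glucose and 1.60 ± 0.04 with AGEs. Of the summed FPKM of the 5 dehydrogenases that make NADPH, Idh1 took 14.2 to 15.5% over the control libraries, 21.5 to 22.8% under high glucose and 13.7 to 14.9% with AGEs. Pgd took 15.4 ± 0.68%, 18.1 ± 0.71% and 19.5 ± 0.76%, and Idh2 took 24.1 to 25.5%, 18.8 to 19.7% and 19.5 to 21.5%, in the same order of groups.

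**Figure D3:**
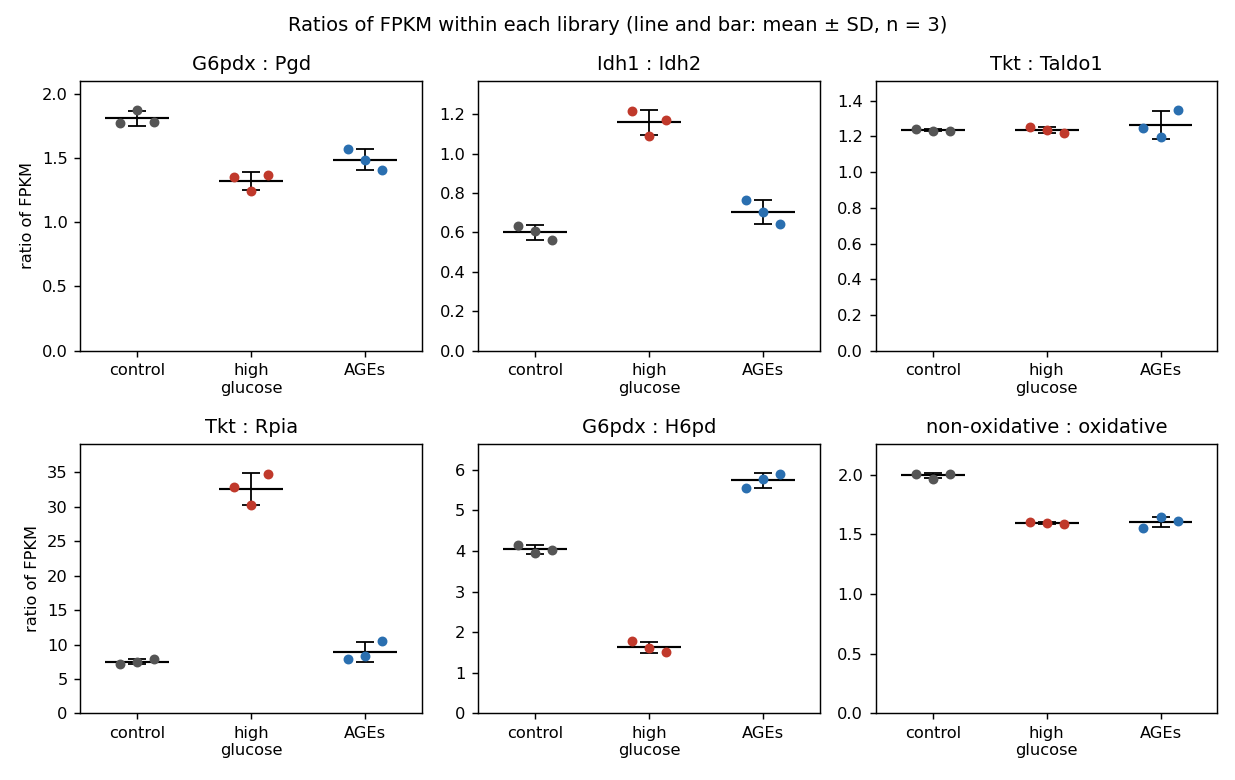
Ratios of FPKM between genes within each library (vertical axes from 0), with the mean ± SD of control, high glucose and AGEs. Tkt to Taldo1 lies between 1.199 and 1.35 in all 9 libraries, Tkt to Rpia reaches 30.2 to 34.8 in high glucose, and non-oxidative to oxidative lies near 1.60 in both treated groups.

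H6pd was read beside G6pdx. It encodes the hexose-6-phosphate dehydrogenase inside the endoplasmic reticulum, which makes NADPH there by the same first steps. H6pd had 80.5, 85.8 and 88.8 CPM without treatment, 247, 256 and 263 CPM under high glucose, and 77.2, 73.9 and 77.3 CPM with AGEs. High glucose alone stood high. The rise there was 3.002-fold (adjusted p = 6.04e-07, log2 fold change 1.59, SE 0.07), and the direct comparison put AGEs 3.35-fold lower than high glucose (adjusted p = 3.7e-07). The FPKM ratio of G6pdx to H6pd was 4.04 ± 0.11 without treatment, 1.63 ± 0.13 under high glucose and 5.74 ± 0.19 with AGEs, and the 3 ranges did not overlap.

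Other genes of the pathway and of ribose use went both ways. Of 15 listed genes 11 were tested. In high glucose 4 rose and 4 fell (19.6% and 19.7% of all genes), with a list median of −0.02. Prps1, which turns ribose 5-phosphate into the nucleotide precursor PRPP, fell by 0.70 on the log2 scale (adjusted p = 9.63e-05), and Tigar, a phosphatase that diverts sugar towards the pathway, fell by 0.85 (adjusted p = 0.000269). In AGEs against control 0 were called by edgeR (2 at an unadjusted p under 0.05) and 1, lower, by DESeq2, and H6pd was at −0.16.

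Of 12 genes listed around other NADPH sources and NAD kinases 11 were tested, since Nnt has 2 rows in the table and was left out. Not every listed gene makes NADPH itself (Mthfd1l does not). In high glucose 7 fell and 1 rose (19.7% and 19.6% of all genes), with a median of −0.59, and limma on log2(FPKM + 0.1) called 5 lower and 1 higher. The mitochondrial folate enzymes fell most: Aldh1l2 by 2.86, from 846 to 116 CPM (adjusted p = 7.4e-07), Mthfd1l by 1.79 (adjusted p = 6.06e-07) and Mthfd2 by 1.77, from 321 to 94.4 CPM (adjusted p = 2.16e-07). In AGEs against control 0 of the 11 were called by edgeR and 0 by DESeq2, with 2 at an unadjusted p under 0.05, and their log2 fold changes ran from −0.16 to 0.39. Aldh1l2 was 2.90 higher on the log2 scale in AGEs than in high glucose (adjusted p = 6.68e-07).

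Genes around the use of NADPH were listed for redox and for biosynthesis, and not every listed gene uses NADPH itself. Of 15 redox genes 5 rose and 0 fell in high glucose (19.6% and 19.7% of all genes), with a median of 0.30, and limma on log2(FPKM + 0.1) called 8 higher. Gsr, which regenerates glutathione, rose from 174 to 430 CPM (log2 fold change 1.31, adjusted p = 4.23e-05). The carbonyl reductase Cbr3 rose by 2.01 (adjusted p = 9.55e-06) and the quinone reductase Nqo1 by 0.93 (adjusted p = 0.000313). In AGEs against control edgeR called 1 of the 15, Nqo1 (log2 fold change 1.08, adjusted p = 0.0148), and DESeq2 called 3, all higher. Of 15 tested biosynthesis genes 3 rose and 7 fell in high glucose (19.6% and 19.7% of all genes), with a median of −0.06, while limma on log2(FPKM + 0.1) called 6 higher and 4 lower. The proline synthesis genes Pycr1 and Aldh18a1 fell by 2.29 (adjusted p = 3.31e-05) and 1.77 (adjusted p = 6.95e-07).

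Several of the 10 genes, G6pdx, Pgd, Tkt, Taldo1 and Me1 among them, are known targets of NRF2, the transcription factor encoded by Nfe2l2 that responds to oxidants. Nfe2l2 itself had 156 CPM without treatment, 169 CPM under high glucose and 161 CPM with AGEs (log2 fold changes 0.11 and 0.05, adjusted p = 0.331 and 0.872). Keap1, which holds NRF2 for degradation, rose by 0.77 in high glucose (adjusted p = 0.00036) and had 0.01 in AGEs. Of 17 NRF2 targets outside the pathway 9 rose and 5 fell in high glucose (19.6% and 19.7% of all genes), with a median of 0.41, and limma on log2(FPKM + 0.1) called 9 higher and 2 lower. In AGEs 2 were called by edgeR and 8 by DESeq2, all higher, and 13 of 17 had all AGEs libraries above control and 0 all below (9.47% and 9.73% of all genes), with a median of 0.41 (all genes 0.00). Nqo1, Gsr, Txnrd1 and Srxn1 stand in this list and among the redox genes.

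The glutathione transferase Gsta4 had 12.8, 14.3 and 12.98 CPM without treatment and 60.8, 62.8 and 91.3 CPM with AGEs (log2 fold change 2.42, adjusted p = 0.0015). In high glucose Gsta4 was at 63.2, 50.7 and 46.5 CPM (4.01-fold, adjusted p = 3.25e-05). Gclm, a subunit of the enzyme that limits glutathione synthesis, had 97.9, 111 and 125 CPM in AGEs against 51.4 to 68.7 CPM in control (log2 fold change 0.85, adjusted p = 0.0623). Txnrd1, thioredoxin reductase, had 403, 533 and 760 CPM in AGEs against 343 to 366 CPM in control (log2 fold change 0.66, adjusted p = 0.272), with the highest value in AGEs library 3. The heme oxygenase gene Hmox1 fell by 1.40 in high glucose (adjusted p = 1.63e-05) and had 0.39 in AGEs (adjusted p = 0.27). Of 18 regulators 3 rose and 6 fell in high glucose by edgeR (19.6% and 19.7% of all genes). With limma on log2(FPKM + 0.1) 8 were called higher and 5 lower (5121 and 2426 of all 17680 genes). Among those that fell by edgeR were the small MAF partner genes Maff, by 1.48 (adjusted p = 3.35e-06), and Mafk, by 1.07 (adjusted p = 2.01e-05).

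**Figure D4:**
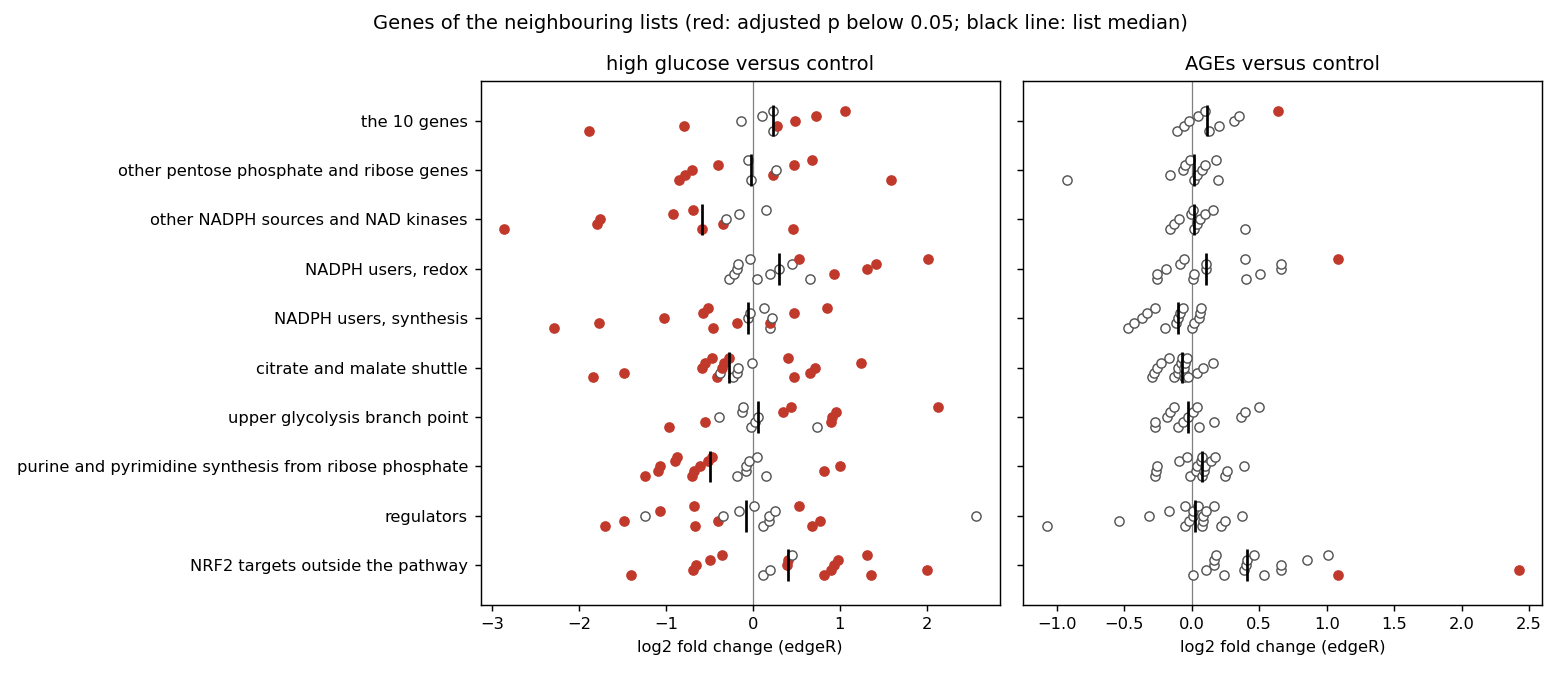
Log2 fold change (horizontal axis) of each tested gene of the 10 lists in high glucose (left) and AGEs (right) against control, red where the adjusted p was under 0.05, with the list median as a black line. The list of other NADPH sources and NAD kinases lies mostly left of 0 in high glucose with a median of −0.59. The NRF2 targets lie at or right of 0 in AGEs with a median of 0.41.

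The start sites of the 10 genes were searched for the core of the antioxidant response element bound by NRF2, TGACNNNGC on either strand. The search was chosen with the expression values known. G6pdx, Pgd, Me1 and Idh1 had all libraries of both treatments above control. All 10 genes matched the RefSeq promoter table (GRCm38.p6), with 13 windows of 300 bases that reach from 250 before to 50 after a start. The core was in 3 of the 13 windows, 1 each of G6pdx, Pgd and Me1, and in 12.4% of all 32851 windows. The matches are shown with 10 bases on each side, 5′ to 3′ on the strand of the gene, with the match in capitals; all 3 genes lie on the minus strand.
G6pdx, chrX:74428919-74428947: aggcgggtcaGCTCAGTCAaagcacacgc
Pgd, chr4:149166061-149166089: atttcagagcTGACATTGCactgatcgga
Me1, chr9:86695902-86695930: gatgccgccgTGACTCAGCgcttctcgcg
In G6pdx the core lies on the opposite strand, 57 to 49 bases before the listed start, in an exon of the GENCODE annotation outside the coding sequence. In Me1 it spans the start itself, from 6 bases before it. In Pgd it lies at the second listed start, inside a coding exon, and the window at the first start holds none. The E-box CACGTG (7.15% of all windows) and TGATGNAA (3.97%), searched on both strands, were in none of the 13. GGGCGG was in 11 of the 13 windows (35.7% of all windows), with at least 1 for each of the 10 genes. CCAAT was in 6 of the 13 (37.4% of all windows). A TATA box (13.6% of all windows) and a sterol element (0.234%) were also in none of the 13. A longer form of the antioxidant core, with a fixed tail, was in 1 of the 13, at the second start of Pgd (3.04% of all windows). A match of letters is a description and shows no binding. Since the search was chosen with the expression values known, the matches cannot serve as a test of regulation. Whether NRF2 acts on these genes was not tested.

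Rpia, the gene of the 10 with the smallest p in high glucose, lies on chromosome 6 from 70765720 to 70792232 (minus strand, GRCm38). Idh1 lies on chromosome 1 from 65158616 to 65186500 (minus strand) and Pgd on chromosome 4 from 149149991 to 149166707 (minus strand). Of 11926 genes with a mean of at least 1 FPKM, the 5 most like Rpia over the 9 libraries by Pearson correlation of log2(FPKM + 1) were Acot2, D6Wsu163e, Pabpc1, Creld2 and 2410006H16Rik, with r from 0.9968 to 0.9974. The 9 points fall into the 3 groups, so these values describe the shared step at high glucose. Acot2 was at 22.8, 7.18 and 20.8 FPKM and Creld2 at 529, 94.5 and 449 FPKM, in the order control, high glucose, AGEs.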

How the data were processed

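Read counts (whole numbers) and FPKM per gene stand side by side in the 1 table the authors deposited, per the file headers. The build GRCm38 and the tools FastQC and cutadapt 1.9 come from the submitters' processing notes. Which aligner, counter, annotation and strand setting made the counts is not given in the sources used here. FPKM was proportional to the counts of a gene after 1 factor per library, and 0.0001 stands for a count of 0. Counts were tested with edgeR 4.0.16 in R 4.3.3 (filterByExpr by group, TMM, glmQLFit and glmQLFTest, 3 group means in 1 fit of 9 libraries, two-sided, Benjamini-Hochberg over 17680 genes). SE is the absolute log2 fold change over the root of F. The procedure was tested on simulated data. Alternatives used DESeq2 1.42.0 and limma 3.58.1, and BLAST 2.17.0 searched GENCODE mouse release 21 transcripts for copies. Replicate libraries differed by more than sampling noise (chi-square per degree of freedom 37.1 to 83.9). The 10 genes and all lists were chosen with earlier results of these data known. Genes were named by rule: the 10, fixed reference genes, their copies or overlapping genes, the called list genes of smallest p, and the 5 most like the member of smallest p. Aldoa and Nnt have 2 rows each and were left out of the lists. Alternatives were other size factors, filters, tools, pseudocounts of 1 and 0.1, the 2 groups alone, a replicate block and the omission of each library.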

Additional observations from a re-analysis of the deposited data

How the results depend on the processing

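Over 17 alternatives per comparison, 153 of 170 values of single genes in high glucose kept direction and side of the threshold, as did 154 of 170 in AGEs against control and 152 of 170 in AGEs against high glucose. In high glucose 7 genes were called higher with limma on log2(FPKM + 1) and with log2(FPKM + 0.1), against 4, and leaving out 1 library gave 4 to 6. Of all 17680 genes 5237 and 5121 were called higher on these FPKM scales, against 3466 by edgeR. Genes called higher in AGEs against control were 3 with DESeq2, 0 in the fit on the 2 groups compared, 0 with the replicate block and 0 to 1 without 1 library. Genes called lower in AGEs against high glucose were 2 with DESeq2, 2 with DESeq2 size factors, 2 with a mean CPM of at least 1, 6 on both FPKM scales, and 1 to 2 without 1 library. Of all 17680 genes 5509 with log2(FPKM + 1) and 5433 with log2(FPKM + 0.1) were called lower there, against 3572 by edgeR. All genes called in AGEs against control were 325 with DESeq2 and 5 with the replicate block, against 15, and 10 to 21 without 1 library. The cause of these moves was not tested. Signs turned for Pgls in high glucose (0.041 with log2(FPKM + 0.1) and 0.037 with log2(FPKM + 1)) and in AGEs against high glucose (−0.12 with log2(FPKM + 0.1) and −0.11 with log2(FPKM + 1)), and for G6pdx there (−0.12 on both). In AGEs against control signs turned without 1 library for Idh2 (values from −0.13 to 0.033), Pgls (−0.10 to 0.020) and Rpe (−0.0022 to 0.12). On the FPKM scales 67.9% and 68.6% of genes called in high glucose against control were higher (49.9% by edgeR), and 30.1% and 29.6% of those in AGEs against high glucose (49.4% by edgeR). Deviations from the group means correlated at r from −0.067 to 0.084 between same-numbered libraries and from −0.069 to 0.074 between others. With 3 libraries per group these values cannot show whether equal numbers mark a shared culture. The replicate block called 6322 genes in high glucose against control, 5 in AGEs against control and 6390 in AGEs against high glucose, and of the 10 genes it changed only the call of Pgd in AGEs. The lowest count of any of the 10 genes in a library was 1134, so depth did not limit their detection.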

Other observations

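In the synthesis of nucleotides, for which the pathway supplies ribose, more genes were called lower than higher in high glucose. Of 18 genes of purine and pyrimidine synthesis 10 fell, 2 rose and 6 were not called (19.7% of all genes fell and 19.6% rose), with a list median of −0.49. Cad, which starts pyrimidine synthesis, went from 328 to 138 CPM (log2 fold change −1.25, adjusted p = 1.82e-06 by edgeR). Ctps, which makes CTP, fell by 1.07 (adjusted p = 2.04e-06) and Atic, the last step to IMP, by 1.09 (adjusted p = 4.63e-06). In AGEs against control 0 of the 18 were called by edgeR (6 at an unadjusted p under 0.05) and 1, higher, by DESeq2, and Cad was at 346 CPM there.

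Genes listed around the substrates of Idh1 and Me1 went both ways, and not every listed gene supplies these substrates. Of 19 genes of the citrate and malate shuttles 5 rose and 9 fell in high glucose by edgeR (19.6% and 19.7% of all genes; 5 and 5 with limma on log2(FPKM + 0.1)). The cytosolic aminotransferase Got1 fell by 1.84 (302 to 84.2 CPM, adjusted p = 3.93e-07) and the pyruvate carboxylase Pcx by 1.49 (adjusted p = 0.00013). The dicarboxylate carrier Slc25a10 rose by 1.24 (adjusted p = 5.29e-05), and Acly, which splits cytosolic citrate, rose by 0.66 (adjusted p = 0.000855), named after its value was seen. At the branch point with glycolysis 6 of 15 tested genes rose and 2 fell (19.6% and 19.7% of all genes). The hexokinase gene Hk1 rose by 0.91 (adjusted p = 0.000657) while Hk2 fell by 0.97 (adjusted p = 0.0021), a pair named after its values were seen. In AGEs against control 0 genes of both lists were called by edgeR or DESeq2, with 3 shuttle genes and 2 glycolysis genes at an unadjusted p under 0.05.

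Of the 17 NRF2 targets 6 were higher and 4 lower in AGEs than in high glucose (19.7% and 20.2% of all genes), and limma on log2(FPKM + 0.1) called 4 higher and 5 lower. Hmox1 was higher in AGEs than in high glucose by 1.79 on the log2 scale (adjusted p = 3.85e-06), Slc7a11, the cystine carrier, by 1.67 (adjusted p = 7.3e-05) and the exporter gene Abcc1 by 0.91 (adjusted p = 6.3e-06). Gsr was lower in AGEs (log2 fold change −0.91, adjusted p = 0.00031) and Prdx1, a peroxidase gene, likewise (−0.73, adjusted p = 0.00108), both named after their values were seen.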
